A study of Homo sapiens with 14 samples.

Results

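The KMT2D peaks of chromosome 19 were all peaks that a deposited list placed on that chromosome, 464 of the 13808 peaks in all. They were compared between 5 stretches of clustered KRAB zinc finger genes and the rest of the chromosome, and a peak was assigned to a stretch by its summit. The list came from ChIP-seq with an antibody to KMT2D in KMT2D-WT SCC23 cells, a cultured line from a human squamous cell carcinoma of the head and neck, deprived of glucose, which the labels call a low-glucose condition. The series had 14 sample labels, all from SCC23 cells in that condition. They covered the KMT2D ChIP and an input in KMT2D-WT cells, and H3K4me1, H3K27ac, H3K4me3, H3K27me3, H3K9me3 and H3 ChIP in KMT2D-WT and KMT2D-KO cells. KMT2D-KO cells had been made by transfection of a plasmid with Cas9 and a guide RNA to KMT2D, and the counterpart guide was to LacZ. Only the KMT2D ChIP library had a file used here, and the others were not analysed here, so peaks were compared within 1 library of 1 cell line and no comparison between genotypes was made.

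KMT2D is a histone methyltransferase that places monomethylation on lysine 4 of histone H3, mostly at enhancers. KRAB zinc finger genes form a large family that grew by tandem duplication, and many of its members lie side by side in clusters on chromosome 19. Their proteins bind DNA through arrays of zinc fingers, many of them within transposable elements, and through the KRAB domain they recruit TRIM28, which brings the H3K9 methyltransferase SETDB1. The clusters themselves are known to carry H3K9me3 in many human cell types. Among RefSeq protein-coding genes (assembly GRCh38.p14), 262 of 1451 on chromosome 19 (18.1%) had a symbol starting with ZNF, ZFP, ZSCAN or ZKSCAN, which was 46.3% of the 566 such genes in the genome. They formed 19 runs of at least 5 neighbours, and the longest run, from ZNF737 to ZNF681, held 27 genes. Such a symbol does not show that a gene has a KRAB domain, which was not checked. That annotation is of another build than the peaks (GRCh37, also called hg19), so no gene was assigned to a peak, and the bounds of the stretches were used as given without a check against gene positions.

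The stretches were few in peaks. They were stretch 1 (9.0 to 9.9 Mb) and stretch 2 (11.7 to 12.7 Mb) in 19p13.2, stretch 3 (19.8 to 24.3 Mb) in 19p12, and stretch 4 (52.4 to 54.0 Mb) and stretch 5 (56.1 to 59.1 Mb) in distal 19q. Together they held 22 peaks in 11 Mb, or 2.00 peaks per Mb (exact 95% Poisson interval 1.25 to 3.03). The other 442 peaks lay in 42.2 Mb, or 10.5 peaks per Mb (9.51 to 11.5), a length that leaves out the longest peak-free interval of the chromosome. The density in the stretches was 0.191 times that in the rest (exact conditional 95% interval 0.119 to 0.293). At the density of the rest the stretches would have held 115.1 peaks. They made up 20.7% of the length compared and held 4.74% of the peaks. These intervals and all others given here cover counting error only, and neighbouring peaks are not independent of each other. The number of bases to which reads can be mapped uniquely was not analysed here.

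**Figure D1:**
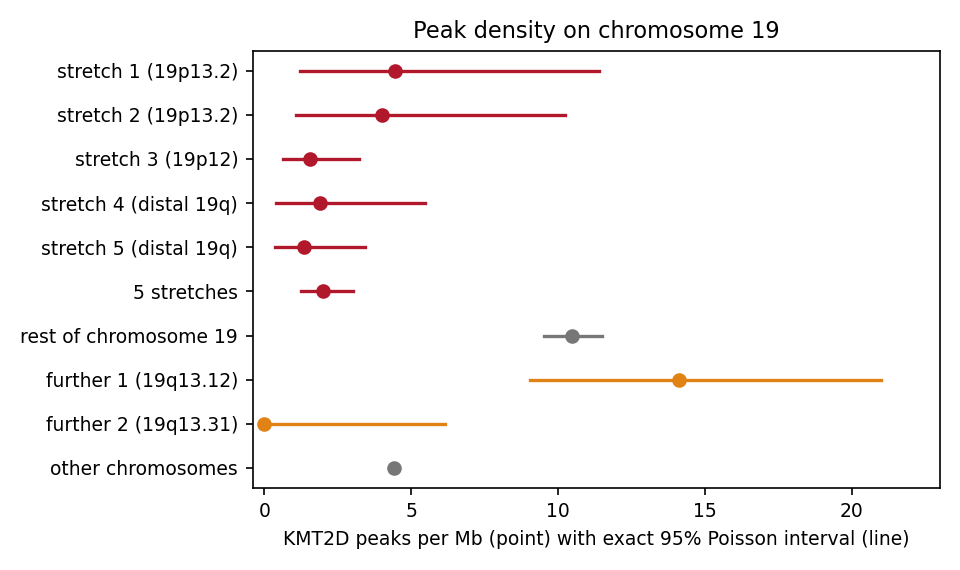
The horizontal axis gives KMT2D peaks per Mb as points, with exact 95% Poisson intervals as lines, for each stretch, the 5 stretches together, the rest of chromosome 19, 2 further zinc finger stretches and the other chromosomes. Each of the 5 stretches lies below the 10.5 peaks per Mb of the rest, and the interval of stretch 1 reaches past that value.

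The short stretches in 19p13.2 were the densest of the 5. Stretch 1 held 4 peaks (4.44 per Mb, 1.21 to 11.4) and stretch 2 held 4 (4.0 per Mb, 1.09 to 10.2). Stretch 3 held 7 peaks (1.56 per Mb, 0.625 to 3.21), stretch 4 held 3 (1.88 per Mb, 0.387 to 5.48) and stretch 5 held 4 (1.33 per Mb, 0.363 to 3.41). Relative to the rest, the ratios were 0.149 (0.0594 to 0.309) for stretch 3, 0.179 (0.0368 to 0.527) for stretch 4 and 0.127 (0.0346 to 0.328) for stretch 5. The ratio was 0.382 (0.104 to 0.985) for stretch 2 and 0.425 (0.115 to 1.09) for stretch 1, whose interval included 1. A lower density was therefore not shown for stretch 1 at this number of peaks. For stretch 2 the interval ended just below 1, and it covers counting error only. Stretches 1 and 2 together were 2.74 times as dense as stretches 3 to 5 together, with an interval (0.995 to 6.99) that also included 1.

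No difference in peak strength was detected between the stretches and the rest. The fold enrichment is the ratio of the ChIP pileup to the local background at the summit. Its median was 4.22 in the 22 peaks of the stretches (interquartile range 3.43 to 6.06, lowest 2.66, highest 13.4) and 4.11 in the 442 others (3.20 to 5.54, lowest 1.97, highest 21.8). The 95% interval of the median, from order statistics, was 3.56 to 5.93 in the stretches and overlapped that of the rest (3.94 to 4.34). Of the 22 peaks, 13 (59.1%, 95% Wilson interval 38.7 to 76.7%) had q-values no higher than 0.05, as did 265 of the 442 (60.0%, 55.3 to 64.4%), against 58.5% of all peaks in the list. The difference was -0.864 percentage points (Newcombe 95% interval -21.7 to 17.4). Differences within that interval were not detectable with 22 peaks. At a q-value threshold of 0.01, 11 peaks of the stretches and 221 of the rest passed, 50% of each, against 47.7% of all peaks. Peaks of the stretches past a q-value of 0.05 had a median fold enrichment of 5.93, compared with 5.20 in the rest, and the others had 3.20 and 3.12. Without stretch 3, the stretches had a median fold enrichment of 3.75, and 46.7% of their peaks had q-values no higher than 0.05. With 1 peak per domain of peaks joined over gaps of up to 10 kb, the medians were 3.93 and 4.47 in the rest. The shares were then 52.6% and 65.9%. Intervals of the difference in shares included 0 in both cases. Thus the stretches differed from the rest by how many peaks they held, and no difference in fold enrichment or q-value was detected with 22 peaks.

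**Figure D2:**
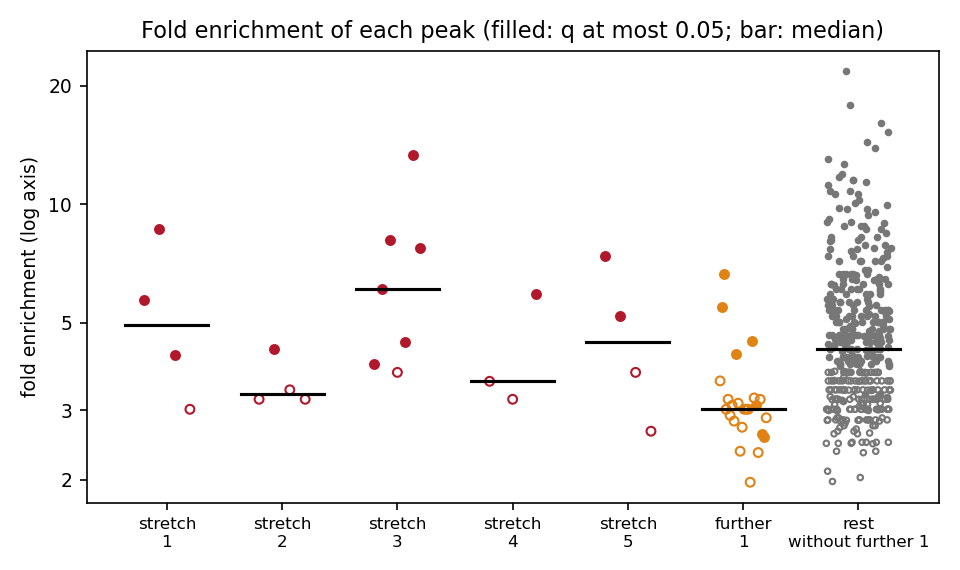
The vertical axis (log scale) gives the fold enrichment of each of the 464 peaks of chromosome 19 by stretch, with filled points for q-values of at most 0.05 and bars for medians. The peaks of the 5 stretches span 2.66 to 13.4 and lie within the range of the rest, while most of the 24 peaks of the further stretch in 19q13.12 lie between 2 and 4.

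Peaks are given below by position on GRCh37. In stretch 1, the highest peak (chr19:9186093-9186623, 531 bp) had a fold enrichment of 8.65, 45 ChIP fragments over the summit and a q-value of 4.83e-12. It was also the widest of the stretch. The peak at chr19:9128806-9129333 followed, with 5.73-fold enrichment and 29 fragments, and the one at chr19:9707762-9708035 had 4.15-fold enrichment and 41 fragments. The latter was the only peak in any of the 5 stretches whose local background was raised, at 2.74 times the genome-wide level. The fourth peak of the stretch (chr19:9785845-9786241) had 3.02-fold enrichment and a q-value of 0.994. In stretch 2, 1 of 4 peaks passed a q-value of 0.05. It was the highest and the widest there (chr19:12146302-12146922, 621 bp), with a fold enrichment of 4.29, 21 fragments and a q-value of 0.0395. The other 3 (chr19:12035864-12036046, chr19:12511079-12511389 and chr19:12662126-12662327) had fold enrichments of 3.20, 3.38 and 3.20 and 15, 16 and 15 fragments. Thus no peak of stretch 2 exceeded a fold enrichment of 4.29, whereas stretch 1 held 2 peaks above the median of the rest by more than 1 unit of fold enrichment.

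Stretch 3, the longest and next to the centromere, held the strongest peak of any zinc finger stretch. The peak at chr19:23732025-23733554 was 1530 bp wide, with a fold enrichment of 13.4, 71 fragments and a q-value of 1.56e-24. It ranked 7 among the 464 peaks of the chromosome and was the only peak wider than 1000 bp in the stretches. Peaks at chr19:23730531-23731240 (4.47-fold, 22 fragments) and chr19:23737141-23737822 (7.74-fold, 40 fragments) flanked it within 7.29 kb, and this was the only group of at least 3 peaks joined by gaps of up to 10 kb in the stretches. The remaining peaks of the stretch stood alone. The strongest of them (chr19:21531336-21531621) had 8.11-fold enrichment and 42 fragments, and the next (chr19:21326769-21326997) had 6.11-fold enrichment and 31 fragments. The other 2, at chr19:21023280-21023482 and chr19:23692959-23693249, had fold enrichments of 3.93 and 3.75. In all, 6 of the 7 peaks of stretch 3 passed a q-value of 0.05, compared with 1 of 4 in stretch 2, a difference that was not tested at these counts.

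The stretches of the long arm held 7 peaks. In stretch 4, the highest and widest peak was at chr19:53494863-53495087, with a fold enrichment of 5.93 and 30 fragments. The other 2, at chr19:53069923-53070105 and chr19:53447158-53447350, had fold enrichments of 3.56 and 3.20 and q-values above 0.05. In stretch 5, a pair of neighbouring peaks led. The peak at chr19:56888504-56889224 had 7.38-fold enrichment and 38 fragments, and that at chr19:56895213-56895976, the widest of the stretch at 764 bp, had 5.20-fold enrichment and 26 fragments. The other 2, at chr19:58201231-58201435 and chr19:58838892-58839079, had fold enrichments of 3.75 and 2.66. The last of these had 12 fragments and a q-value of 1, and it was the peak nearest to the long-arm end of the chromosome.

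Long peak-free intervals made up most of the length of the 5 stretches together. Chromosome 19 had 9 peak-free intervals of at least 1 Mb, and 7 of them lay at least in part in a stretch. All 7 were in stretches 3 to 5, while stretches 1 and 2 were only 0.9 and 1.0 Mb long. The 9 intervals covered 65.6% of the length of the stretches and 29.4% of the span outside them. That span, unlike the length of the rest used for densities, includes the longest peak-free interval. No value expected at the density of the stretches was computed. The longest one wholly within a stretch ran for 2.16 Mb in stretch 3, from 21.5 to 23.7 Mb, and the next for 1.31 Mb in stretch 5, from 56.9 to 58.2 Mb. Outside, the longest interval ran for 5.80 Mb from 27.7 to 33.5 Mb on the long arm, and it is left out of the length of the rest. An interval of 3.99 Mb spanned the centromere and was bounded by the last peak of stretch 3 and by a peak at chr19:27732058-27732251 (4.01-fold, local background 3.65 times the genome-wide level). Unassembled bases in these intervals were not counted here.

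The nearest peaks on each side of the edges of the stretches ranged in fold enrichment from 2.66 to 7.74 inside and from 2.48 to 5.20 outside. On the left of stretch 1, the last peak outside lay 421 kb from the edge (3.20-fold) and the first inside 129 kb from it (5.73-fold). On its right, the last inside lay at 114 kb (3.02-fold) and the first outside at 317 kb (2.48-fold). For stretch 2, the values on the left were 53.0 kb outside (3.93-fold) and 336 kb inside (3.20-fold), and on the right 37.7 kb inside (3.20-fold) and 134 kb outside (3.38-fold). No edge of the first 2 stretches thus had a peak within 30 kb. Stretch 3 had a peak 97.9 kb outside its left edge (5.20-fold) and its first peak 1223 kb inside, and on its right 562 kb inside (7.74-fold) and 3432 kb outside (4.01-fold). Stretch 4 had its nearest peaks 1805 kb outside (2.87-fold) and 670 kb inside (3.56-fold) on the left, and 505 kb inside (5.93-fold) and 944 kb outside (4.28-fold) on the right. Stretch 5 had peaks 216 kb outside (3.38-fold) and 789 kb inside (7.38-fold) on the left, and its last peak lay 261 kb before the right edge. The low density thus extended beyond the given bounds of stretch 4 on both sides.

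The surroundings of the stretches differed among themselves. The 1 Mb to the left and to the right of stretch 2 held 16 peaks each, and the 1 Mb to the right of stretch 1 held 15, while the 1 Mb to its left held 5. By contrast, the 1 Mb to the left of stretch 4 and to the right of stretch 3 held 0 peaks each (exact 95% Poisson interval up to 3.69 per Mb), and the 1 Mb to the right of stretch 4 held 1. Against these flanks alone (60 peaks in 8.8 Mb, 6.82 per Mb), the density in the stretches was 0.293 times as high (0.171 to 0.485). The ratio was 0.155 (0.0857 to 0.261) on the short arm, where the rest held 269 peaks (15.1 per Mb), and 0.184 (0.0731 to 0.388) on the long arm. The long arm beyond its longest peak-free interval held 172 peaks outside the stretches (8.20 per Mb). The lower density of the 5 stretches together was thus measured within each arm and against the pooled flanks. Most peaks of those flanks lay beside stretches 1 and 2. No ratio of a single stretch to its own flanks was computed. A lower density against its own flanks was therefore not shown for any 1 stretch. The 1 Mb to the left of stretch 3 held 6 peaks, and that to the left of stretch 5 held 5. Stretches 3, 4 and 5 themselves held 1.56, 1.88 and 1.33 peaks per Mb. The comparisons by arm and against the pooled flanks were chosen after seeing the data.

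With fewer peaks per Mb, peaks of the stretches also lay farther from each other, and no value expected at their own density was computed. The median distance to the nearest other peak was 78.0 kb in the stretches (interquartile range 40.2 to 191 kb) and 6.58 kb in the rest (2.16 to 30.7 kb). A neighbour within 10 kb was present for 5 of 22 peaks (22.7%, 10.1 to 43.4%) and for 246 of 442 (55.7%, 51.0 to 60.2%), a difference of -32.9 percentage points (-46.3 to -11.7). Joined over gaps of up to 10 kb, the 22 peaks formed 19 domains, of which 17 held a single peak. The 442 others formed 270 domains, of which 35 held at least 3 peaks, and these 35 domains contained 166 peaks. When each domain was counted once, the density in the stretches was 0.270 times that in the rest.

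In windows of 1 Mb, the 11 windows with at least 50% of their length in a stretch held a median of 2 peaks (0 to 12), and 4 of them were empty. The window with 12 peaks was at the right end of stretch 2, and most of its peaks lay beyond the edge. The 45 windows with no part in a stretch held a median of 8 peaks (0 to 37), and 9 of them were empty. The fullest windows were 1 to 2 Mb with 37 peaks, 4 to 5 Mb with 27 and 13 to 14 Mb with 26, all on the short arm. Counts of windows outside the stretches had a variance of 7.67 times their mean, so peaks outside the stretches were themselves unevenly spread. The intervals of densities and their ratios assume a variance equal to the mean, and they do not cover this spread.

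**Figure D3:**
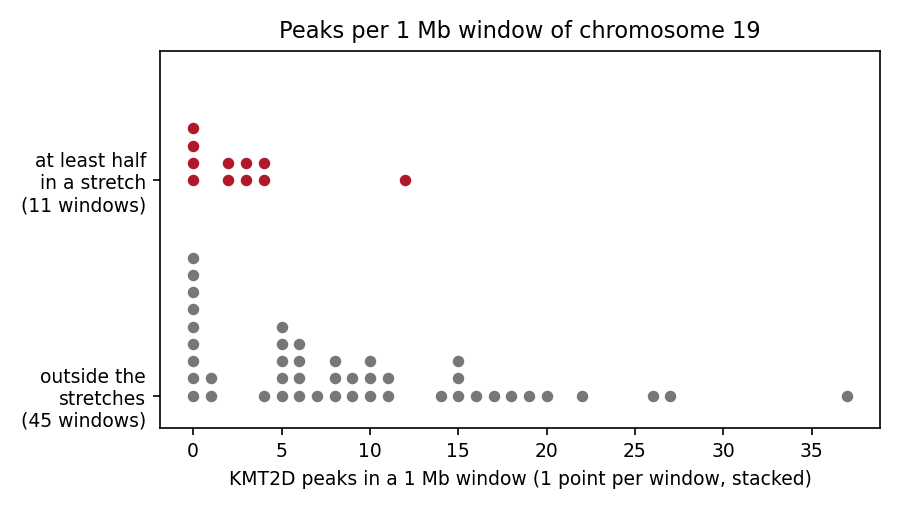
Each point is a 1 Mb window of chromosome 19 placed by its number of KMT2D peaks, with windows stacked where they share a number, and windows partly but under 50% in a stretch left out. The 11 windows in the stretches hold 0 to 4 peaks except 1 with 12, and the 45 outside range from 0 to 37.

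The 10 strongest peaks of the chromosome were all on the short arm. The highest was at chr19:12893112-12895334, 2223 bp wide, with a fold enrichment of 21.8 and 128 fragments, and it lay within 0.2 Mb of the right edge of stretch 2. Peaks at chr19:13278266-13278969 (17.9-fold, 96 fragments), chr19:15938768-15940786 (16.1-fold, 86 fragments) and chr19:13961256-13962655 (15.3-fold, 118 fragments) followed. Next were chr19:4374571-4375767 (14.4-fold, 111 fragments) and chr19:13264222-13266158 (13.9-fold, 74 fragments). The peak of stretch 3 came after these, and the last 3 of the first 10 were chr19:13273445-13274101 (13.0-fold), chr19:1176900-1178118 (12.6-fold) and chr19:13953864-13955656 (11.9-fold). Of these 10 peaks, 9 lay outside the stretches, as did 442 of all 464 peaks, and all 9 were on the short arm, which held 269 of the 442.

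The domains with most peaks were also outside the stretches. The domain at chr19:13947790-13973343 held 12 peaks in 25.6 kb, 10 of them past a q-value of 0.05, and its highest fold enrichment was 15.3. The domains at chr19:1247882-1266648 (10 peaks, highest 8.65-fold), chr19:1161931-1184608 (9 peaks, highest 12.6-fold) and chr19:14605758-14637057 (7 peaks, highest 10.6-fold) also lay on the short arm. The remaining one, at chr19:37760298-37793244, held 10 peaks in 32.9 kb and differed from the others in strength. Its highest fold enrichment was 4.49, 4 of its peaks passed a q-value of 0.05, and the median local background of its peaks was 3.20 times the genome-wide level.

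That last domain lay in another zinc finger stretch. A stretch in 19q13.12 (36.6 to 38.3 Mb) and one in 19q13.31 (44.4 to 45.0 Mb), both placed from general knowledge of the chromosome and not part of the 5, were described separately. The stretch in 19q13.31 held 0 peaks in 0.6 Mb (interval up to 6.15 per Mb), and its ratio to the rest had an interval of 0 to 0.590. The stretch in 19q13.12 held 24 peaks (14.1 per Mb, 9.05 to 21.0), and its density was 1.35 times that of the rest without both stretches (0.854 to 2.03). It was thus not shown to differ in density from the rest.

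Peaks of the 19q13.12 stretch were weak. Their median fold enrichment was 3.02 (interquartile range 2.79 to 3.21), compared with 4.29 in the rest without both stretches. Their highest fold enrichment was 6.65, in the peak at chr19:36627869-36628271 with 34 fragments. Of the 24, 7 passed a q-value of 0.05 (29.2%, 14.9 to 49.2%), compared with 61.7% in the rest, a difference of -32.6 percentage points (-47.5 to -12.0). The local background was raised, that is at least 2 times the genome-wide level, in 7 of the 24, and at least 5 times in 4. The highest value was in the peak at chr19:37784235-37784606, where 80 fragments stood on a local background of 10.0 times the genome-wide level. Only 1 further peak of chromosome 19, at chr19:16934006-16934290, had a background of at least 5 times. Without peaks of raised background, the stretch held 10.0 peaks per Mb and the ratio to the rest was 1.04 (0.598 to 1.68). With peaks of a q-value of at most 0.05 only, it was 0.637 (0.254 to 1.33).

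The share of peaks at the genome-wide local background differed between the 5 stretches and the rest, with an interval that excluded 0. That interval treats peaks as independent, which neighbouring peaks are not. No version with 1 peak per domain was run for this share. Both the fragments and the local background at each summit were derived from deposited fold enrichments and p-values. The median number of fragments was 21.5 in the stretches and 24 in the rest, and the genome-wide background alone corresponds to 2.88. Within a tolerance of 0.5%, the local background was at the genome-wide level in 21 of the 22 peaks of the stretches (95.5%, 78.2 to 99.2%) and in 286 of the 442 others (64.7%, 60.1 to 69.0%), a difference of 30.7 percentage points (13.0 to 36.6). The tolerance took in 2 peaks of the stretches and 24 of the rest with a local background of 1.005 times the genome-wide level. With a tolerance of 0.1%, chosen after seeing the data, the counts were 19 of 22 (86.4%, 66.7 to 95.3%) and 262 of 442 (59.3%, 54.6 to 63.8%), a difference of 27.1 points (6.89 to 37.1). MACS2 takes the larger of the genome-wide and the local level, so a local level below the genome-wide one cannot be seen in these values. A peak at the genome-wide level needed at least 11 fragments to pass the authors' p-value threshold.

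**Figure D4:**
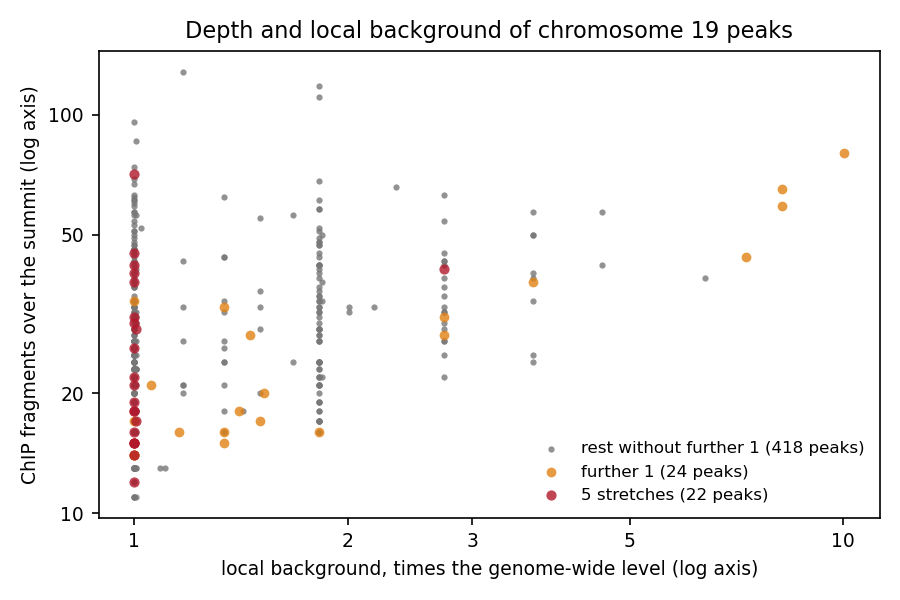
The horizontal axis (log scale) gives the local background at each chromosome 19 peak as a multiple of the genome-wide level, and the vertical axis (log scale) the ChIP fragments over its summit. In the 5 stretches 21 of 22 peaks stand within 0.5% of 1, while 4 peaks of the 19q13.12 stretch stand at 5 or more.

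Widths followed the same order as fragment numbers. The median width was 288.5 bp in the stretches and 370 bp in the rest. Peaks wider than 1000 bp numbered 1 in the stretches (4.55%) and 42 in the rest (9.50%), a difference of -4.96 percentage points whose interval (-9.81 to 12.5) included 0. Of the 42, 31 lay on the short arm and 11 on the long arm. The 43 wide peaks of the chromosome had a median fold enrichment of 7.69 and a median of 47 fragments, compared with 4.01 and 23 in the other 421.

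Despite these stretches, chromosome 19 was among the densest chromosomes. It held 7.90 peaks per Mb over the span from its first to its last peak (7.19 to 8.65) and ranked 3 of 23 chromosomes, after chromosome 17 (10.8) and chromosome 22 (9.97). Its density was 1.79 times that of the other chromosomes together (4.42 per Mb, interval of the ratio 1.62 to 1.96), 0.731 times that of chromosome 17 (0.652 to 0.819) and 0.792 times that of chromosome 22 (0.687 to 0.912). Without the stretches the ratio to the other chromosomes was 2.08, here with the longest peak-free interval kept in the length of the rest (9.20 peaks per Mb). The stretches themselves were 0.453 times as dense as the other chromosomes together (0.284 to 0.686), so they were sparse against that average as well as against their own chromosome. Chromosomes 18 (1.68 per Mb) and X (0.948 per Mb) as a whole were below the 2.00 per Mb of the stretches. The median fold enrichment on chromosome 19 was 4.11, against 4.01 on the other chromosomes, and 278 of its 464 peaks (59.9%, 55.4 to 64.3%) passed a q-value of 0.05, compared with 58.8% on the other chromosomes, a difference of 1.11 points whose interval (-3.50 to 5.55) included 0.

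The share of wide peaks on chromosome 19 was above that of the other chromosomes together. Peaks wider than 1000 bp made up 9.27% of its peaks (6.95 to 12.3%) and 5.50% of those on the other chromosomes, a difference of 3.77 percentage points (1.42 to 6.77). It was the highest of the 23 values, followed by chromosome 14 (8.88%) and chromosome 11 (8.78%), but the differences from these were 0.392 points (-3.24 to 4.08) and 0.483 points (-2.75 to 3.98). The differences from chromosome 22 (0.934 points, -3.16 to 4.81) and from chromosome 17 (2.19 points, -0.800 to 5.54) also had intervals that included 0. The share of peaks at the genome-wide local background was 66.2% on chromosome 19 (61.7 to 70.3%) and ranked 2 of 23, next to 66.4% on chromosome 21. It was 42.3% on the other chromosomes together, a difference of 23.9 points (19.4 to 28.1), and exceeded chromosome 17 by 21.3 points (15.8 to 26.6) and chromosome 22 by 20.8 points (13.9 to 27.4). With the tolerance of 0.1% the shares were 60.6% and 36.1%, a difference of 24.5 points (19.9 to 28.9). A raised local background was found at 8.84% of chromosome 19 peaks and 15.4% of the others.

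**Figure D5:**
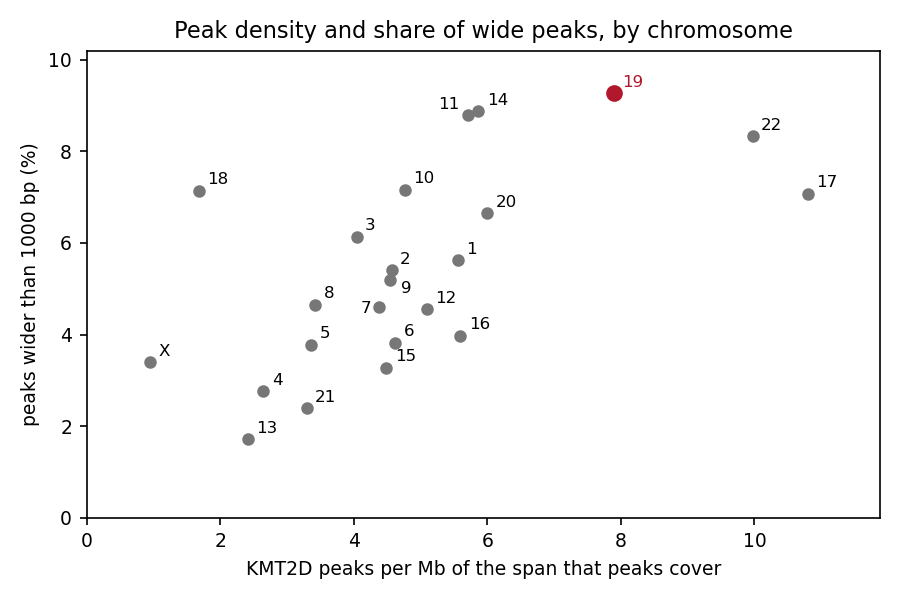
Each point is 1 of 23 chromosomes, with KMT2D peaks per Mb on the horizontal axis and the percentage of its peaks wider than 1000 bp on the vertical axis. Chromosome 19, at 7.90 peaks per Mb and 9.27%, stands highest on the vertical axis, close to chromosomes 14 (8.88%) and 11 (8.78%), and ranks 3 in density.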

How the data were processed

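KMT2D ChIP-seq of KMT2D-WT SCC23 cells (1 library, no replicates) was analysed from 1 list of peaks. Bowtie2 alignment to GRCh37 (hg19) was done by the authors, who retained unique alignments only and ran MACS2 with a p-value threshold of 0.01. The control that MACS2 used is not given in the sources used here. No listed peak had a p-value above 0.00984. The deposited fold enrichment is a ratio of scaled ChIP pileup to local background, each with a pseudocount of 1. Deposited p-values and q-values are on a −log10 scale, and the deposited score is derived from the p-value.

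All peaks of chromosome 19 were kept, and their summits placed them in stretches. ChIP fragments and local background were rebuilt from fold enrichment and p-value (scale 0.381, a 2.63-fold deeper ChIP than control), with a largest gap of 0.000108 in −log10 p on chromosome 19, and the rebuilding was tested on simulated data. Total library depth was not analysed here. Densities were given with exact Poisson and conditional intervals, shares with Wilson and Newcombe intervals at the 95% level. With 1 library, no p-value between groups was computed. The members, stretches and tests were chosen with earlier results of these data known. The planned removal of the longest peak-free interval was meant for the centromere, but that interval lay on the long arm. It was removed as planned, and removal of the centromeric one was added. Alternatives were other thresholds, domains in place of peaks, other stretch bounds and other parts of the rest. Named peaks were the first 10 by fold enrichment, the 3 highest and the widest of each stretch, the 5 largest domains, the 3 fullest windows, the longest peak-free intervals and the peaks at stretch edges. Peaks of the stretches beyond these, 1 peak of high background elsewhere, the peak next to the centromere and 2 peaks of that stretch were named after their values were seen. Gene annotation and sequence of GRCh37 were not used here. Scripts ran in Python 3.11.15 with pandas 2.3.3, scipy 1.17.1 and numpy 2.4.6, and plots were drawn with matplotlib 3.10.9.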

Additional observations from a re-analysis of the deposited data

Results flagged for a closer look

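An unlocalized contig of chromosome 19 (GL000208.1), which the comparisons above did not use, carried 1 peak. It spanned positions 92191 to 92561 (371 bp) and had a fold enrichment of 1.62 and a q-value of 0.0294. It held 219 fragments on a local background of 46.6 times the genome-wide level, above every peak placed on chromosome 19. The library has no control sample in the files used here against which to set this peak.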

How the results depend on the processing

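The density in the 5 stretches stayed below that of the rest, with an interval under 1, in all 22 alternatives (ratios 0.155 to 0.347), 5 of them added after seeing the data. All of these intervals cover counting error only and not the uneven spread of peaks along the chromosome. The ratio was 0.330 with both further stretches added, 0.347 for domains with gaps of up to 25 kb, 0.217 with the longest peak-free interval kept and 0.176 with the centromeric interval also out. Chromosome 19 stayed denser than the other chromosomes in all 6 alternatives (1.68 to 2.08). The median fold enrichment in the stretches was 6.11 with a q-value of at most 0.01 and 3.21 with the further stretches added. In the rest it was 5.55 with that q-value and 4.47 with 1 peak per domain (4.12 to 4.65). With 1 peak per domain the stretches had 3.93 (3.38 to 5.93), below the rest but with an overlapping interval. The difference in the share of peaks with a q-value of at most 0.05 had an interval that included 0 in most settings and turned positive at 0.0911 points with stretches widened by 100 kb, 2.09 with them narrowed, and 6.71, 3.20 and 1.16 without stretch 2, 4 or 5. It was -13.3 points without stretch 3 (46.7% against 60.0%) and -13.3 with 1 peak per domain. Without stretch 3 the median fold enrichment of the stretches was 3.75, below the 4.11 of the rest. Adding the further stretches gave -18.2 points (-32.3 to -3.20), since 24 peaks of 19q13.12 then joined. No paired analysis was possible because a file of only 1 library was used here. Other sequence windows and start-site distances were not run, as they need GRCh37 sequence and annotation. With 22 peaks, differences in strength are limited by counting error.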
